A study of Mus musculus with 2 samples.

Results

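The 34 genes described here encode proteins that remove peroxides and superoxide, keep protein thiols reduced, make and recycle glutathione, reduce biliverdin or bind metals. The rule that picks them uses gene names and no measured value. It takes listed members of the glutathione peroxidases, peroxiredoxins, superoxide dismutases, thioredoxins with their reductases, glutaredoxins and metallothioneins. Catalase, enzymes of glutathione synthesis, the regulators Nfe2l2 and Keap1, Nqo1 and the biliverdin reductases complete the set. The families are not whole: Gpx5, Gpx6, Prdx6b, Txnrd3, Glrx2, Glrx3, Mt3 and Mt4 are not in the set and belong to the pathway lists described further below. All 34 were found by symbol among the 43346 genes measured. The tissue was embryonic liver of the C57BL/6J strain at day 14, and the RNA was polyadenylated and over 200 nucleotides in size. The 2 libraries form 1 group, are labelled biological replicates 1 and 2, and each pools male and female littermates. The labels name no allele or treatment. They give the libraries separate tissue entries under a single donor entry, so whether they came from different litters is not stated. The p-values printed below compare only these 2 libraries and cover counting error, not the spread between litters or animals. With 1 group there is no comparison of conditions, and the values below are levels within the liver profile and differences between the 2 libraries.

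Aerobic cells form superoxide and hydrogen peroxide, and red cells add to this because oxygenated haemoglobin oxidises spontaneously. Superoxide dismutases turn superoxide into hydrogen peroxide, which catalase, glutathione peroxidases and peroxiredoxins then remove. Glutathione peroxidases are recharged by glutathione, and most peroxiredoxins by thioredoxin, and both carriers are reduced again with electrons from NADPH. The transcription factor Nrf2, encoded by Nfe2l2, raises many of these genes under oxidative stress and is held down by Keap1. Metallothioneins are small cysteine-rich proteins that bind zinc and copper, and fetal liver is known as a tissue that stores zinc in them. In the embryo the liver is also the main site of red cell formation, so its RNA comes from erythroid cells and immature hepatocytes together.

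The catalytic residue divides the peroxidases, and 6 of the 34 genes encode selenocysteine, a selenium-containing amino acid written by a TGA codon that elsewhere ends translation. The coding sequence around this codon is shown for these 6 and for Gpx7 and Gpx8, glutathione peroxidases of the endoplasmic reticulum with a cysteine in its place, since this codon is what differs between the 2 kinds of enzyme. The sequences come from GENCODE M21 transcripts on GRCm38, 5′ to 3′, with the TGA or cysteine codon in capitals and up to 15 bases on each side.
Gpx1: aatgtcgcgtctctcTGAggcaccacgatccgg
Gpx2: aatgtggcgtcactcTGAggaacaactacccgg
Gpx3: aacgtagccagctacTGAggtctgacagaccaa
Gpx4: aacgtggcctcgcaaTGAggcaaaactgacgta
Gpx7: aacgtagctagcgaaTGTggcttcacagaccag
Gpx8: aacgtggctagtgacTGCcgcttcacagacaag
Txnrd1: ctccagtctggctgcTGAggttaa
Txnrd2: actgtgactggttgcTGAggctaa
In Gpx1 the codon is number 47 and in Gpx4 number 73, while in Txnrd1 and Txnrd2 it is followed by a single glycine codon and the stop codon. Gpx7 has TGT and Gpx8 has TGC at the aligned place.

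The coding sequences of the metallothioneins are shown whole, because both genes were among the highest of the liver and their cysteines carry the metal. Cysteine codons are in capitals, from the GENCODE M21 transcripts Mt1-201 and Mt2-201.
Mt1: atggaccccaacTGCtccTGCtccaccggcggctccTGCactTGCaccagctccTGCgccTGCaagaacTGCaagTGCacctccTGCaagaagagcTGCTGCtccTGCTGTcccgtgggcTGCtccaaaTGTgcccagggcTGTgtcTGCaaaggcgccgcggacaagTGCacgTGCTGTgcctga
Mt2: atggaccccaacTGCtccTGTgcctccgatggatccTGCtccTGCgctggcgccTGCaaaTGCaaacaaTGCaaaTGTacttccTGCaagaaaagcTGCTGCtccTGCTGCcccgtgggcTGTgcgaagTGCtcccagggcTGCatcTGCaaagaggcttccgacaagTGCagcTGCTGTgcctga
Each sequence has 186 bases, and 20 of its 61 codons before the stop encode cysteine. All 20 cysteine codons stand at the same places in both genes, which are identical at 148 bases (79.6%). The genes lie in the same orientation on chromosome 8, 5513 bases apart, with Mt2 (chr8:94172664-94173568) before Mt1 (chr8:94179082-94180327, GRCm38).

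As a set the 34 genes were high in embryonic liver. Their medians were 65.4 and 70.9 TPM in replicates 1 and 2, where TPM (transcripts per 1e6) is a level per transcript length that can be compared between genes. The medians of all 21474 protein-coding genes were 1.17 and 1.20 TPM, and those of the 17435 with a count 2.88 and 3.17 TPM. At least 10 TPM in both libraries was reached by 27 of the 34 genes (79.4%), against 22.9% of protein-coding genes and 28.2% of those with a count. At least 100 TPM was reached by 12 (35.3%), against 2.77% and 3.41%. Together they took 1.06% of all TPM in replicate 1 and 1.23% in replicate 2. Gpx5, Gpx6, Prdx6b, Txnrd3, Glrx2, Glrx3, Mt3 and Mt4, which are outside the set, each lay below its medians in both libraries. The levels of the set therefore hold for the chosen genes and not for whole families. Glutathione peroxidases summed to 3635 ± 285 TPM (SD, n = 2), metallothioneins to 3552 ± 626 TPM, and peroxiredoxins to 1749 ± 224 TPM, and the first 2 of these sums overlapped between the libraries. The superoxide dismutases and catalase summed to 846 ± 25.1 TPM, the biliverdin reductases to 625 ± 0.537 TPM, the genes of glutathione synthesis and reduction with the glutaredoxins to 544 ± 68.4 TPM, the thioredoxin system to 419 ± 27.4 TPM, and Nrf2, Keap1 and Nqo1 to 48.7 ± 5.38 TPM. These are bulk libraries, in which fewer cells of a type and less RNA per cell cannot be told apart.

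**Figure D1:**
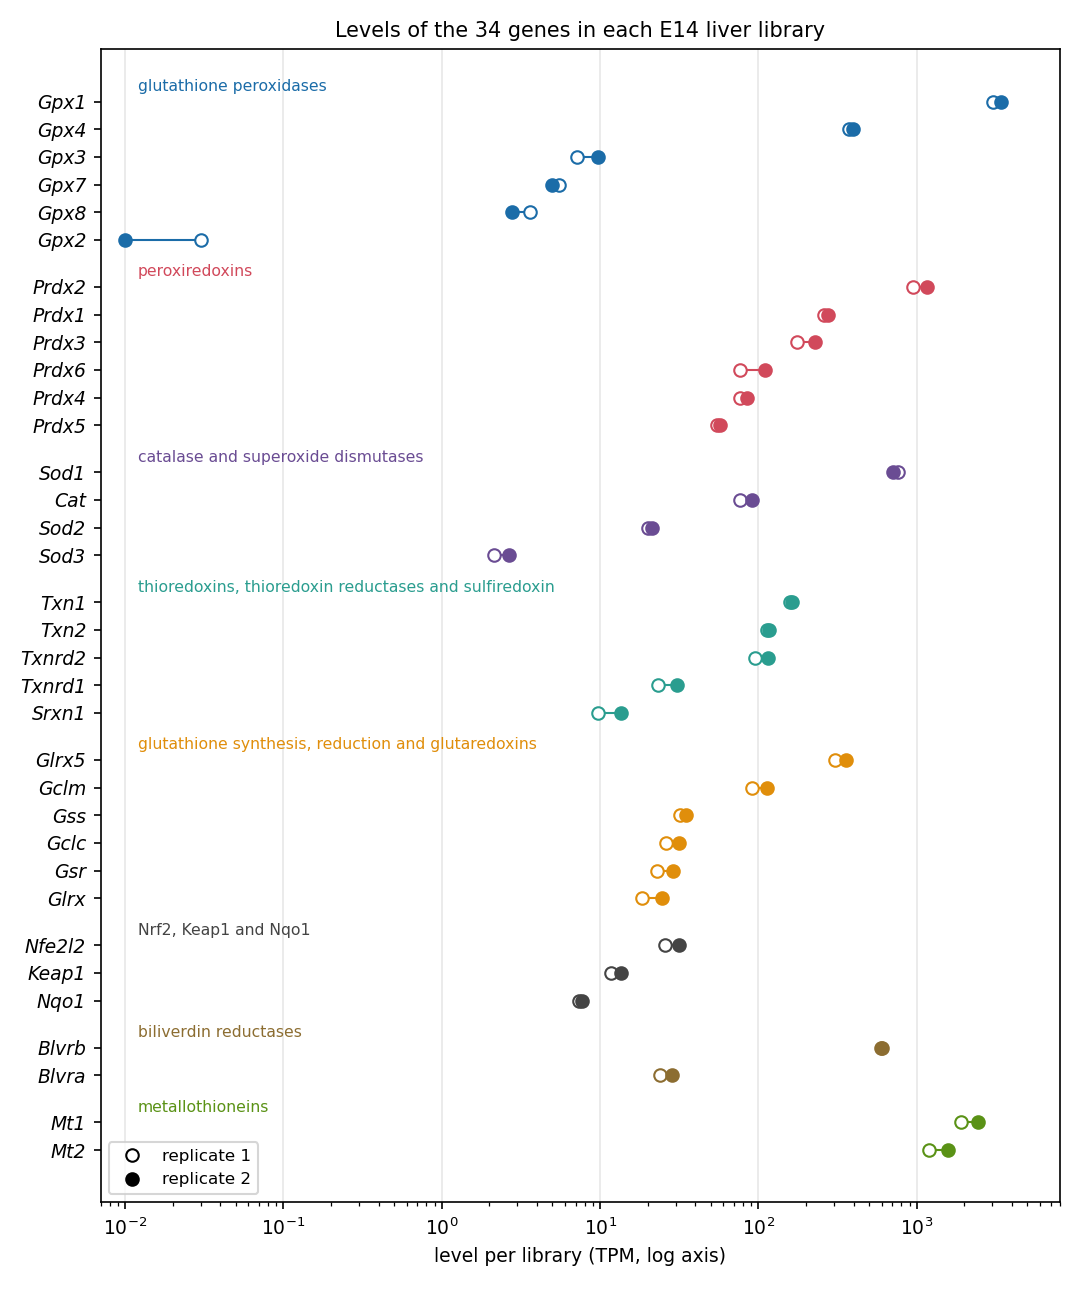
Level of each of the 34 genes in TPM on a log axis, open circles for replicate 1 and filled circles for replicate 2, with a line joining the libraries and genes grouped by role. Gpx1 stands at 3047 and 3425 TPM and Gpx2 at 0.03 and 0.01 TPM, and the families hold both high and low members.

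Among the glutathione peroxidases, Gpx1 and Gpx4 carried nearly all of the RNA. Gpx1, the cytosolic enzyme that reduces hydrogen peroxide (ENSMUSG00000063856.7, chr9:108338903-108340343), had 3047 TPM in replicate 1 and 3425 TPM in replicate 2, from 226046 and 375333 expected counts. It was the highest of the 34 genes and ranked 10th among protein-coding genes, or 6th with the 4 adult globins left out. Gpx4, which reduces lipid peroxides within membranes (chr10:80047166-80056439), had 371 and 394 TPM, so that Gpx1 exceeded it 8.45 ± 0.330-fold (SD, n = 2). Gpx3, the peroxidase secreted into plasma, had 7.18 and 9.69 TPM. Gpx7 had 5.50 and 4.95 TPM and Gpx8 3.59 and 2.79 TPM, so these 2 cysteine enzymes were low. Gpx2, best known from the gut, had 3 and 2 counts, or 0.03 and 0.01 TPM, at the floor of these libraries. Among the 6 glutathione peroxidases of the set, the selenium enzymes thus included both the highest and the lowest. Outside the set, Gpx5 had 0.01 and 0 TPM and Gpx6 0.02 and 0.05 TPM, also at the floor. All 6 selenoprotein genes summed to 3543 and 3974 TPM, which was 33.5% and 32.4% of the RNA of the 34 genes.

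By gene totals all 6 peroxiredoxins of the set exceeded 50 TPM in both libraries. Prdx2, the abundant peroxiredoxin of red cells (ENSMUSG00000005161.11, chr8:84969587-84974834), had 948 and 1154 TPM and ranked 60th among protein-coding genes. Prdx1, its cytosolic relative, had 260.2 and 275 TPM, and Prdx2 exceeded it 3.92 ± 0.388-fold. The values of Prdx1 and Prdx2 did not overlap. Prdx3, which works in mitochondria, had 174 and 226 TPM. Prdx6, which uses glutathione and a single active cysteine, had 76.4 and 110.4 TPM, and Prdx4, of the endoplasmic reticulum, 76.6 and 84.8 TPM, so the values of these 2 overlapped. Prdx5, found in mitochondria and peroxisomes, was lowest by gene totals at 54.7 and 57.0 TPM. Coding transcripts held only 21.3% and 22.4% of Prdx6 TPM, so by coding transcripts Prdx6 lay under Prdx5 and under 50 TPM.

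Of the enzymes for superoxide, the cytosolic one was far above the others. Sod1, the copper and zinc enzyme (chr16:90220754-90226329), had 765 and 713 TPM, while Sod2, the manganese enzyme of mitochondria, had 20.0 and 21.2 TPM, a difference of 35.9 ± 3.35-fold. Sod3, the secreted form, had 2.14 and 2.67 TPM. Cat, which encodes catalase, the peroxisomal haem enzyme that breaks down hydrogen peroxide, had 76.0 and 91.3 TPM. Prdx2 exceeded Cat 12.6 ± 0.118-fold and Gpx1 exceeded Prdx2 3.09 ± 0.173-fold, so these 3 genes stood in the order Gpx1, Prdx2 and Cat in both libraries. Gpx4, Prdx1 and Prdx3 stood between Prdx2 and Cat. Prdx6 was also above Cat within each library, though their values overlapped, and Prdx4 was above Cat in replicate 1 only.

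The thioredoxin system was spread over a narrower range. Txn1, cytosolic thioredoxin, had 158 and 163 TPM, and Txn2, the mitochondrial form, 113 and 117 TPM, a ratio of 1.40 ± 0.00287-fold. Txnrd2, the mitochondrial thioredoxin reductase, had 95.8 and 114 TPM and Txnrd1, the cytosolic one, 23.2 and 30.4 TPM. Here the mitochondrial gene was the higher one, by 3.94 ± 0.270-fold. Srxn1, sulfiredoxin, which repairs overoxidised peroxiredoxins, had 9.65 and 13.6 TPM.

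In glutathione metabolism the regulatory subunit of the first enzyme exceeded the catalytic one by gene totals, but not by the transcript that holds most Gclm counts, Gclm-201, which stood at 0.927 ± 0.00756 times Gclc. Gclc, the catalytic subunit of glutamate-cysteine ligase, had 26.2 and 31.3 TPM, and Gclm, its modifier, 90.6 and 114 TPM, a ratio of 3.55 ± 0.118-fold. Gss, which completes glutathione, had 31.8 and 34.8 TPM. Gsr, which reduces oxidised glutathione, had 22.7 and 28.9 TPM, and its values overlapped those of Gclc. The glutaredoxins differed more: Glrx5, a mitochondrial protein needed for iron-sulfur clusters and for haem synthesis in red cells, had 306 and 359 TPM, and Glrx, the cytosolic enzyme, 18.4 and 24.7 TPM. Glrx5 exceeded Glrx 15.6 ± 1.49-fold.

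By mean TPM the regulators Nfe2l2 and Keap1 ranked 21st and 27th among the members, and Nqo1, a classic Nrf2 target, ranked 30th. Each lay above the median of protein-coding genes with a count, 2.88 and 3.17 TPM in replicates 1 and 2. Nrf2 activity was not tested. Nfe2l2 had 25.8 and 31.4 TPM and Keap1, which marks Nrf2 for degradation, 11.8 and 13.5 TPM. Nqo1, a quinone reductase widely used as a readout of Nrf2, had 7.33 and 7.66 TPM. The biliverdin reductases, which make bilirubin from the product of haem breakdown, stood wide apart. Blvrb, the form typical of fetal and red cells (chr7:27447978-27466144), had 601 and 597 TPM, and Blvra, the main adult enzyme, 23.9 and 28.3 TPM, a difference of 23.1 ± 2.80-fold. Both metallothioneins were very high. Mt1 (ENSMUSG00000031765.7) had 1907 and 2429 TPM and ranked 13th among protein-coding genes, and Mt2 (ENSMUSG00000031762.6) had 1203 and 1566 TPM and ranked 38th. Mt1 exceeded Mt2 1.57 ± 0.0242-fold, and the lower Mt1 library lay above the higher Mt2 library.

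Ordered by mean TPM, 19 of the 33 pairs of neighbours did not overlap between libraries and 14 did. The 12 highest genes, from Gpx1 through Mt1, Mt2, Prdx2, Sod1, Blvrb, Gpx4, Glrx5, Prdx1, Prdx3 and Txn1 to Txn2, each stood clear of the next one above. From Txn2 to Prdx4 each gene overlapped its neighbour, as did each in the stretch of Gclc, Nfe2l2, Txnrd1, Blvra, Gsr, Glrx and Sod2 and in that of Keap1, Srxn1, Gpx3 and Nqo1, so the order inside these stretches is not resolved by 2 libraries.

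Every tested member differed less than 1.5-fold between the libraries, though their median difference was larger than that of genes with at least 1000 counts. The test used here was a two-sided exact binomial test on rounded expected counts, scaled by the TMM method of edgeR and adjusted by the Benjamini-Hochberg method at 0.05 over all genes with at least 10 counts. It compares these 2 libraries and not conditions, and it and the intervals below cover counting error only. Of 33 genes tested, the second library was higher for 20 and the first for 10. Gpx2 had too few counts. Over all 18572 genes tested those shares were 19.7% and 20.1%. Among the 10856 genes with at least 1000 counts, as 32 of the 34 have, they were 29.0% and 21.6%. No member differed by 1.5-fold or more, as did 16.2% of all genes tested and 1.46% of genes with at least 1000 counts. The median absolute log2 ratio was 0.15 over the tested members and 0.09 over genes with at least 1000 counts. The negative binomial exact test of edgeR, which adds a biological coefficient of variation of 0.191 estimated from this pair, called 0 of the 33 after adjustment and 0 at an unadjusted p under 0.05, against 471 genes called in all. Because the difference under test also sets that variation, the test cannot decide whether the members differ.

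**Figure D2:**
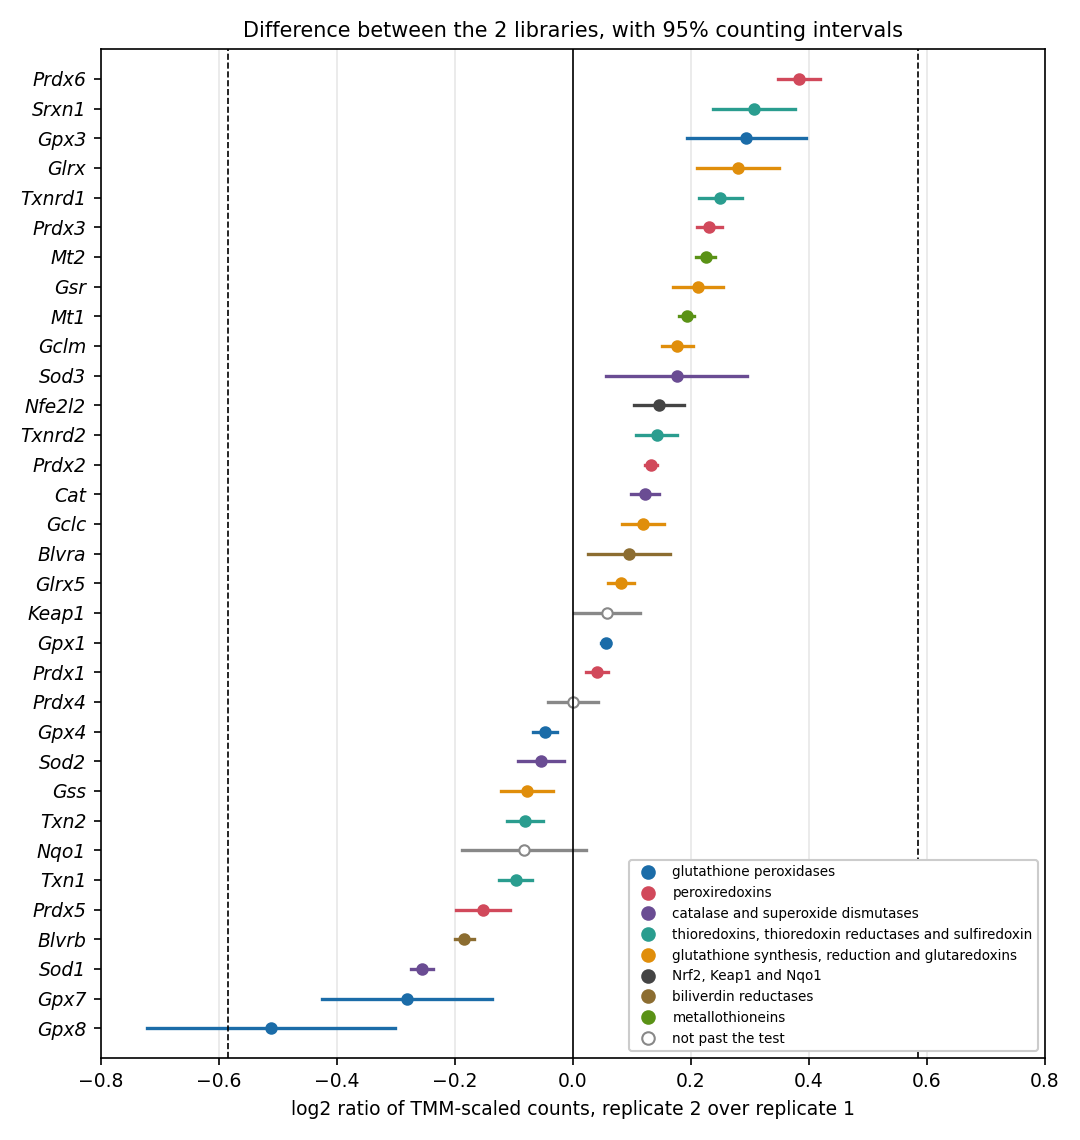
Log2 ratio of TMM-scaled counts, replicate 2 over replicate 1, for the 33 tested genes, with lines for 95% counting intervals, colours for the roles, grey open points for genes not past the test and dashed lines at a ratio of 1.5-fold. Values run from -0.51 for Gpx8 to 0.38 for Prdx6, and no point lies beyond the dashed lines, although the interval of Gpx8 crosses one.

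Genes higher in replicate 2 included both metallothioneins, 4 of 6 peroxiredoxins, 5 of 6 genes of glutathione synthesis, reduction and glutaredoxins, and 3 of 5 genes of the thioredoxin system, in which the other 2, Txn1 and Txn2, were higher in replicate 1. Prdx6 differed most, at 9459 and 19715 expected counts and a log2 ratio of 0.38 (counting interval 0.35 to 0.42, adjusted p = 3.48e-101 by the exact binomial test). Srxn1 followed at 0.31 (0.24 to 0.38) and Gpx3 at 0.29 (0.19 to 0.40). The log2 ratio of Mt1 was 0.19 and that of Mt2 0.23. Txnrd1 stood at 0.25, Gsr at 0.21, Gclm at 0.18 and Gclc at 0.12.

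Among the 10 genes higher in replicate 1, Gpx8 and Gpx7 differed most. Gpx8 had 356 and 399 expected counts and a log2 ratio of -0.51 (-0.72 to -0.30, adjusted p = 9.65e-06 by the exact binomial test), and Gpx7, with 696 and 915 counts, -0.28 (-0.42 to -0.14). Sod1 stood at -0.26, Blvrb at -0.18, Prdx5 at -0.15, Txn1 at -0.10, Txn2 and Gss at -0.08, and Gpx4 and Sod2 at -0.05. Gpx4 and Sod2 changed sign when library totals were used for scaling (0.0085 and 0.0016), and these 2 with Prdx5, Txn1, Txn2 and Gss changed sign on unscaled TPM, on which all genes with at least 100 counts had a median log2 ratio of 0.14. Prdx4, Nqo1 and Keap1 did not pass the test.

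Markers of other cell types moved between the same libraries, in which 19.7% of all genes tested were higher in replicate 2 and 20.1% in replicate 1. All 10 skeletal muscle genes were higher in replicate 1, with a median log2 ratio of -5.32 and a summed level of 73.6 against 3.87 TPM, and Actc1 at 30.6 and 1.48 TPM. Of 8 stellate and mesenchymal genes 7 were higher in replicate 1, with a median log2 ratio of -0.74 and a sum of 196 against 141 TPM, while Col3a1 had 58.2 and 33.9 TPM. All 8 granulocyte genes and 8 of 9 macrophage genes were higher in replicate 2, with median log2 ratios of 0.44 and 0.29, sums of 1303 against 1908 TPM and 236 against 313 TPM, and S100a8 at 561 and 843 TPM. Erythroid markers summed to 488503 and 441033 TPM and fetal hepatocyte markers to 23584 and 26866 TPM, every gene of both lists reached 10 TPM in both libraries, and 8 of 12 and 8 of 10 were higher in replicate 2. The other 4 erythroid genes, the adult globins, which make up most of that sum, were higher in replicate 1, as were the other 2 hepatocyte genes, Fgb and Apoa2. Higher in replicate 2 and in replicate 1 were 0 and 2 of 7 mature hepatocyte genes, 1 and 2 of 6 megakaryocyte genes and 3 and 3 of 8 endothelial genes. The part of these cells in the differences of Gpx7, Gpx8, Sod1, Prdx6 or any other member was not tested.

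Several levels depended on which transcripts the quantification assigned. Of 30 members with at least 5 TPM in both libraries, 17 had at least 90% of their TPM on 1 transcript. In 7 genes the highest transcript held less than 70% in either library, namely Gpx1, Prdx1, Prdx2, Prdx6, Txnrd2, Gclm and Keap1. Gpx1 was divided between Gpx1-204, a coding transcript of 653 bases with 60.9% and 57.3% of TPM, and Gpx1-201, of 1072 bases, with 38.5% and 42.1%. By expected counts the order was the other way, with 55.0% and 58.8% on Gpx1-201. Gpx1-201 alone would be 3.41 ± 0.346 times Gpx4.

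Ratios given above for Txnrd2, Gclm and Prdx2 also moved when the transcript with most counts took the place of the gene. The short Txnrd2-208, of 592 bases, held 47.2% and 47.6% of Txnrd2 TPM but 19.7% and 19.3% of its counts, and the longer Txnrd2-203 had 31.4 and 39.2 TPM, which is 1.32 ± 0.0473 times Txnrd1. Gclm-201, of 4841 bases, held 76.2% and 74.0% of Gclm counts and had 24.1 and 29.2 TPM, under Gclc in both libraries. Prdx2-201 alone, at 364 and 466 TPM, was 1.55 ± 0.209 times the whole of Prdx1. Prdx1-204, the Prdx1 transcript with most counts, had 117 and 137 TPM. This measure sets 1 transcript against a whole gene, so each ratio can only fall. The direction of Gclm over Gclc turned, and the other ratios kept theirs.

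By the mean of both libraries, Prdx6 was the only one of the 30 whose highest transcript was not coding. In Gclm a retained-intron transcript, Gclm-205, was highest in replicate 1 (27.7% and 22.7% of TPM), while Gclm-206 held 26.3% and 33.0%. Prdx6-204, a processed transcript of 603 bases, held 37.98% and 35.7% of its TPM, Prdx6-208, annotated as a target of nonsense-mediated decay, 35.9% and 31.1%, and the coding transcripts together 21.3% and 22.4% by TPM or 40.6% and 43.0% by counts. In Prdx2, coding transcripts held 71.4% and 68.7% of TPM, led by Prdx2-201 with 38.4% and 40.4%, and the retained-intron transcript Prdx2-207 held 23.8% and 25.6%. In Prdx1 the order of transcripts differed between the libraries, with Prdx1-205 at 45.3% and 31.4% and Prdx1-204 at 44.9% and 49.96%. Keap1 was divided between the coding Keap1-205, at 48.9% and 51.2%, and Keap1-201, at 33.8% and 30.6%. Sod1, Txn1, Txnrd1, Gclc, Glrx5, Mt1 and Mt2 each had a single transcript in the table.

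**Figure D3:**
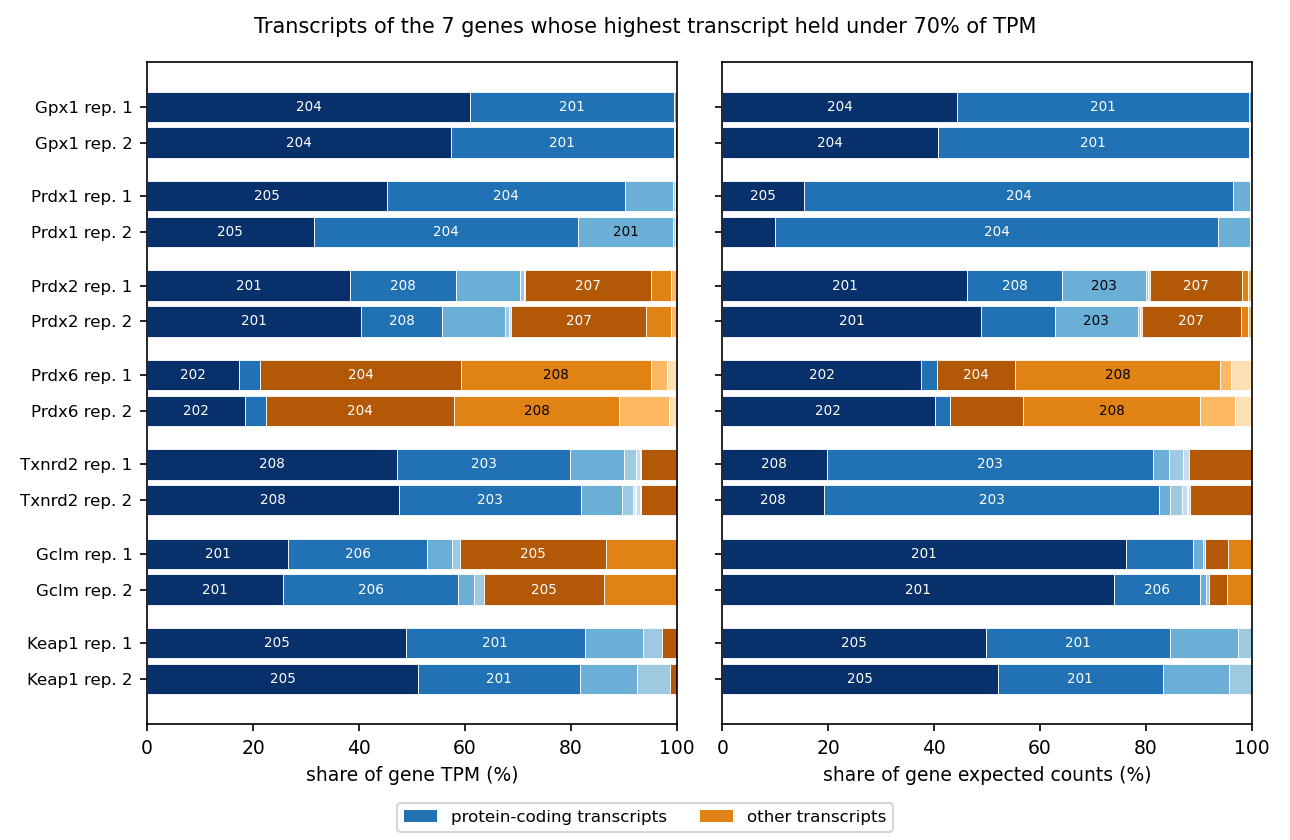
Share of each gene's TPM (left) and expected counts (right), in percent, held by its transcripts in each library, for the 7 genes whose highest transcript held under 70% of TPM, with coding transcripts in blue and others in orange, numbered as in the annotation where the share is at least 14%. Prdx6 is mostly orange on the TPM side, and Gclm-201 grows from 26.6% of TPM to 76.2% of counts in replicate 1.

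Reads across splice junctions, listed for mm9 in replicates not tied to either library, gave a view of these genes that does not depend on transcript assignment. The single intron of Gpx1 (chr9:108241890-108242107, mm9) had 55651 and 93825 reads, the highest of the members. In Prdx2 the first intron used 2 acceptor sites from the same donor, and the farther one (chr8:87493662-87494138) took 85.6% and 86.0% of the reads. In Prdx6, on the minus strand, 2 annotated exon ends joined the same acceptor, and the more distant one (chr1:163177545-163181152) took 88.6% and 90.7%. In Keap1 3 donor positions joined one acceptor, with 42 and 72 reads from the annotated one and 59 and 109 reads (56.2% and 52.9%) over chr9:21042201-21043519, whose far end is not an exon end of the mm9 gene models. In Txnrd2 18.5% and 15.3% of reads from one donor skipped an exon (junction chr16:18472343-18474774). Counting only junctions read in both replicates, of which Gpx2 had 0, at least 93.3% of the reads of each other member joined annotated exons.

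The older mm9 table of RPKM, a read density per length and sequencing depth, ordered the 34 members with a Spearman correlation of 0.961 to mean TPM, as a description across genes. The values of its 2 replicates are not tied to either library. TPM exceeded mm9 RPKM by a median of 4.86-fold, and 3 genes had more than 2 times this ratio. Gpx4 had 11.2 and 12.1 RPKM in the authors' values and a ratio of 32.8, and fell from rank 7 to rank 17 among the members. Sod1 had 36.0 and 58.3 RPKM and a ratio of 15.7, and Txn1 13.8 and 18.9 RPKM and a ratio of 9.83. In the older table Gpx1 stood 46.2-fold above Gpx4, Sod1 9.95-fold above Sod2, and Txn1 at 0.686 times Txn2, so the order of Txn1 and Txn2 turned. Blvrb over Blvra (19.9-fold), Prdx2 over Prdx1 (3.65-fold), Mt1 over Mt2 (1.28-fold) and Gclm over Gclc (6.47-fold) kept their direction. So did Txnrd2 over Txnrd1 (1.44-fold), Glrx5 over Glrx (9.83-fold), Prdx2 over Cat (7.70-fold) and Gpx1 over Prdx2 (2.49-fold), each smaller than by TPM.

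Sequence shared with other genes was counted for all 34 members. One coding transcript of each member was cut into all runs of 50 bases, and the share of runs that also occur in an annotated gene elsewhere was counted. For Gpx4 it was 627 of 910 runs (68.9%), all of them in Gpx4-ps2, a processed pseudogene that is not among the genes analysed here. For Sod1 it was 23.1%, in the pseudogene Gm8566, which had 60.0 and 107 expected counts of its own, and for Txn1 2.50%, in Txn-ps1. Outside these 3, shares above 5% were found for Gpx2 (18.9%), Prdx1 (10.9%) and Prdx2 (9.65%), whose ratios of TPM to RPKM lay between 4.52 and 4.87. For Gclm the transcript searched was Gclm-206, with 12.8% and 16.1% of the Gclm counts, and the longer Gclm-201 was not searched. The deposited posterior SD of the Gpx4 count was 0 in both libraries. That of the Gclm count, the largest of the members, was 10.97 and 13.87. How reads from such copies were assigned in either table is not stated, so these levels are less certain than their counting error shows. The part of these copies in the gap between the tables was not tested.

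**Figure D4:**
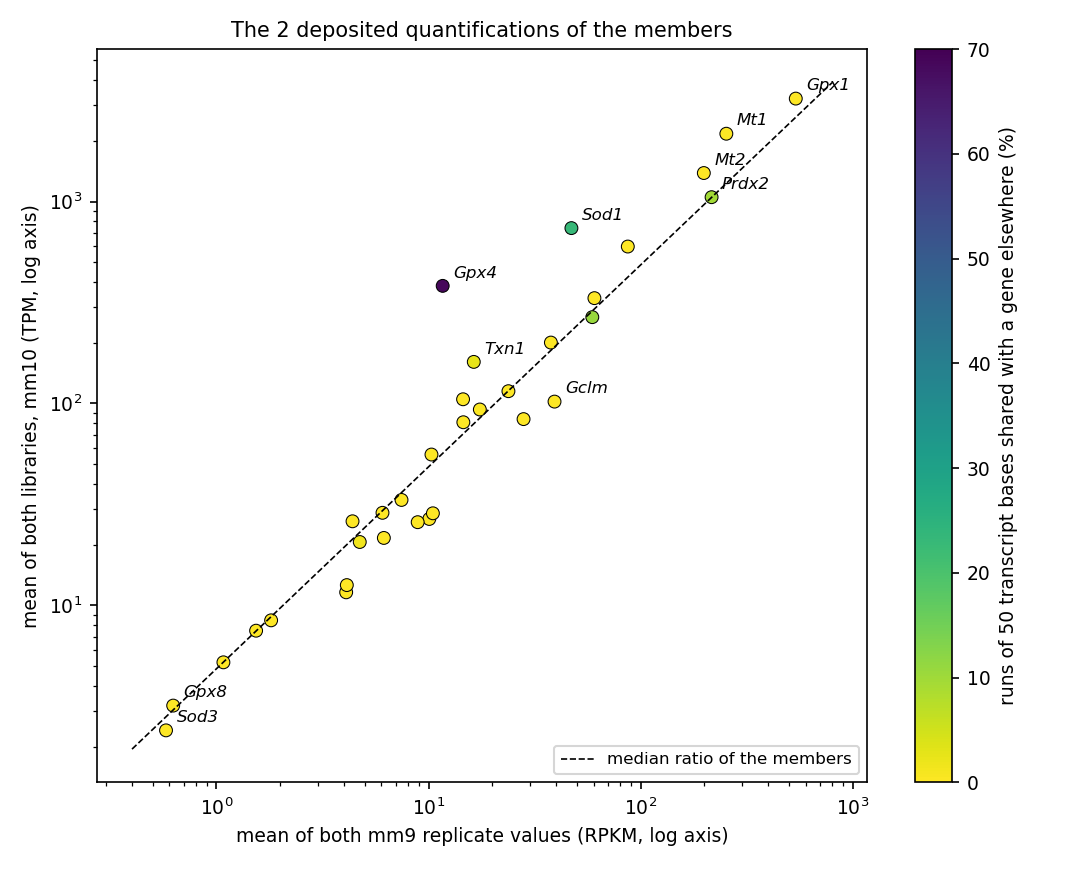
Mean TPM of both libraries on mm10 against the mean of both mm9 RPKM values for 33 genes (Gpx2 lies below both axes), on log axes, with a dashed line at the median ratio and colour for the percent of 50-base runs shared with a gene elsewhere. Gpx4 lies farthest above the line at a ratio of 32.8, followed by Sod1 at 15.7.

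The genes that supply, regulate or use this system were described from 7 lists holding 71 genes besides the members, 67 of them tested. Of these, 27 were higher in replicate 2 and 10 in replicate 1. Over all genes tested the shares were 19.7% and 20.1%, and among genes with at least 1000 counts 29.0% and 21.6%. The counts for single lists, here and in the next paragraph, stand beside these shares and show no shift of a list. Differences of 1.5-fold or more, as in 16.2% of all genes tested, were found for 2 genes. These were Mt3 (14 and 10 counts) and Mt4 (26 and 66 counts), which did not pass the test and are named because of these values. Among partners and targets of Nrf2, the highest were the glutathione transferase Gstp1 (223 and 271 TPM), the pentose phosphate enzyme Taldo1 (199.5 and 232 TPM) and Nfe2, the erythroid relative of Nfe2l2 (131 and 176 TPM), and 10 of 23 were higher in replicate 2 and 4 in replicate 1. Nfe2 thus exceeded Nfe2l2 in both libraries. Hmox1, which opens haem and so feeds the biliverdin reductases, had 57.1 and 86.3 TPM and a log2 ratio of 0.45, Hmox2 had 19.8 and 21.8 TPM and Ccs, the copper chaperone of Sod1, 31.8 and 34.2 TPM.

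Of 6 genes that supply NADPH 3 were higher in replicate 2 and 0 in replicate 1, with Idh2 at 79.5 and 85.4 TPM, Pgd at 38.4 and 47.0 TPM and Idh1 at 33.7 and 40.3 TPM. Among 11 genes of selenoprotein synthesis and further selenoproteins, Selenop, the plasma selenium carrier, had 244 and 310 TPM, Selenow 179 and 179.9 TPM and Selenof 119 and 142 TPM, and 5 were higher in replicate 2 and 2 in replicate 1. The other metallothioneins were near the floor, Mt3 at 0.35 and 0.18 TPM and Mt4 at 1.20 and 2.15 TPM, far under Mt1 and Mt2. Mtf1, the metal-responsive transcription factor that switches on Mt1 and Mt2, had 8.38 and 8.86 TPM, and the transporters Slc30a10 and Slc39a4 had 18.3 and 22.6 TPM and 6.87 and 8.71 TPM. Of other peroxidases and thiol reductases, 15 of 18 were tested, 4 were higher in each library, and the highest were Txndc17 (44.7 and 46.5 TPM), Glrx3 (43.8 and 45.8 TPM) and Txnl1 (41.1 and 46.4 TPM). Of the superoxide-producing oxidases, Cyba had 59.1 and 67.7 TPM, Ncf4 24.5 and 25.5 TPM and Ncf1 8.22 and 11.3 TPM, and 3 of 6 tested were higher in replicate 2.

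Promoters were searched for the motifs by which metals and Nrf2 are known to act, as a description of sequence. Windows from 250 bases before to 50 after the start (RefSeq, GRCm38.p6) matched 30 of the 34 genes. The core of the metal response element was searched on both strands as TGCACNC or TGCGCNC. It occurred in 8 of these 30 genes, and in 25.7% of all 32851 windows of this length. At least 3 matches occurred in 1.97% of all windows and in 3 of the members, Mt1, Mt2 and Gclm. The windows of both metallothioneins are shown, with matches in capitals, because zinc is known to act on these genes through this element.
Mt1 (chr8:94178839-94179138, plus strand): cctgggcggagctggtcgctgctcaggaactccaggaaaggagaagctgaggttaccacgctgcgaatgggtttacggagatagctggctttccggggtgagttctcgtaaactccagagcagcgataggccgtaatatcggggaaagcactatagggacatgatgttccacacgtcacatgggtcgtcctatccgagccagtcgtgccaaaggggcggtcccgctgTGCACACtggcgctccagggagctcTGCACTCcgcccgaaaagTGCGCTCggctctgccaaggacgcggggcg
Mt2 (chr8:94172368-94172667, plus strand): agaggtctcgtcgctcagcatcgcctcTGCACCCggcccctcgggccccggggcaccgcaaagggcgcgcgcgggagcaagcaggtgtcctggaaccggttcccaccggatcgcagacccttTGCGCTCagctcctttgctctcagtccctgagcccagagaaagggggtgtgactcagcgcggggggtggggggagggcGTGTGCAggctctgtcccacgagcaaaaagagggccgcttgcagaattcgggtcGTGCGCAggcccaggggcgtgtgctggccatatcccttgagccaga
Within its window Mt1 has 3 matches, the first at position -23 and the others at 2 and 20. Mt2 has 4, at -223, -128, -50 and 4, counted from 0 at the first base after the upstream part. These positions refer to the annotated start that sets each window, and where transcription starts in this liver was not tested. Sequence outside the windows was not searched, so further elements of either gene would be missed.

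The core of the antioxidant response element, bound by Nrf2 with small Maf proteins, was searched on both strands as TGACNNNGC or TGAGNNNGC. It occurred in 10 of the 30 genes and in 27.8% of all windows, and at least 3 matches occurred in 0.630% of all windows and in 1 member, Srxn1. The windows of Srxn1, Gclm and Txnrd1 are shown, with matches in capitals, as known Nrf2 targets that hold this core.
Srxn1 (chr2:152105274-152105573, plus strand): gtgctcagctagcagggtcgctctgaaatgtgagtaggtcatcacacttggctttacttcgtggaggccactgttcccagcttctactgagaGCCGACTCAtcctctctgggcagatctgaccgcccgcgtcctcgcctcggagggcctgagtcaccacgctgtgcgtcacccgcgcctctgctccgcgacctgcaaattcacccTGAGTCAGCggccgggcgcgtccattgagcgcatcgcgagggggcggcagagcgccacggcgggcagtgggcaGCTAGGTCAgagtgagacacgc
Gclm (chr3:122245307-122245606, plus strand): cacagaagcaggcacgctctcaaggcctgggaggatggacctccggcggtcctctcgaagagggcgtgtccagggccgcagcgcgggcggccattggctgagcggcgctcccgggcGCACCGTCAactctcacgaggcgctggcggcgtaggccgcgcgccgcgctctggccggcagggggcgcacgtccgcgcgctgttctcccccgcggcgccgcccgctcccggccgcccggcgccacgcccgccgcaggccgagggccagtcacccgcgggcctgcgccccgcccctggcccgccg
Txnrd1 (chr10:82858956-82859255, plus strand): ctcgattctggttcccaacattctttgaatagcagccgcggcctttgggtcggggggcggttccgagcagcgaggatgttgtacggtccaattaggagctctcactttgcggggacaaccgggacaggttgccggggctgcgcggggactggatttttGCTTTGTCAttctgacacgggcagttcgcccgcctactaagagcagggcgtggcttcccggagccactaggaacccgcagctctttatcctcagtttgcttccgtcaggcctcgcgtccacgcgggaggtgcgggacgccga
The Srxn1 match at position -45, TGAGTCAGC, also contains the letters recognised by AP-1. The window of Nqo1 held no match, and of 3 windows of Txnrd1 1 did. Counted by window instead of by gene, 9 of the 37 member windows held the metal core and 10 the antioxidant core, near the shares of all windows.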

How the data were processed

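Liver RNA of 1 group was analysed in 2 libraries. The authors deposited, per library and on mm10 with GENCODE M4, expected counts, TPM and FPKM for genes and transcripts, per the file headers and the accompanying text. Which aligner and quantification tool were used is not stated there. TPM and FPKM were already scaled by the authors for effective length and depth, spike-ins included. A posterior SD of each count (used as a score) and the percent of a gene's TPM on each transcript were also deposited. For mm9 the authors deposited RPKM on ENSEMBL 65 models and junction read counts, each for both replicates without tying them to a library, per the file headers. Expected counts over genes summed to 97174777 in replicate 1 and 149348514 in replicate 2, and 3.29% and 3.40% of all counts lay on other entries, which were left out of the tests.

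Symbols came from GENCODE M21. Expected counts were rounded, scaled by TMM (edgeR 4.0.16, R 4.3.3) and tested by an exact conditional binomial test (scipy 1.17.1, Python 3.11.15) in genes with at least 10 counts in total, with Benjamini-Hochberg adjustment at 0.05. Size factors of DESeq2 1.42.0, library totals, unscaled TPM with a pseudocount of 0.1 and edgeR's negative binomial exact test were alternatives. The test was run first on simulated counts that held counting error only, so that run cannot speak to variation between libraries. Means are given ± SD over 2 libraries. All members were named, with the 3 highest genes of each pathway list and up to 2 of each cell list whose values are given. The members, lists and comparisons were chosen with earlier results of these data known. Coding sequences are shown in place of proteins, which were not used here. The counts of shared bases, the junction shares and the transcript ratios were added after the data had been seen.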

Additional observations from a re-analysis of the deposited data

How the results depend on the processing

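No paired analysis was possible because the libraries form 1 group. The counts of members higher in each library rest on counting error: edgeR's negative binomial exact test left 0 higher in replicate 2 and 0 higher in replicate 1. Its dispersion came from the same 2 libraries that it compares, so these counts of 0 do not show that the members are alike. With library totals, 6 were higher in replicate 1, since Gpx4 (0.0085) and Sod2 (0.0016) changed sign and Txn2 (-0.03, adjusted p = 0.181 by the exact binomial test) and Gss (-0.02, adjusted p = 0.477) no longer passed, while Prdx4 (0.06, adjusted p = 0.0234) and Keap1 (0.11, adjusted p = 0.000219) did. On unscaled TPM the log2 ratio was 0.0893 for Gpx4, 0.0601 for Prdx5, 0.0871 for Sod2, 0.0498 for Txn1, 0.0456 for Txn2 and 0.127 for Gss, each turned in sign. DESeq2 size factors turned no member. The median level, 68.2 TPM, was 59.5 TPM from mean log values, 150 TPM after removing adult globins, mitochondrial genes and spike-ins (56.4% and 52.6% of TPM), and 81.6 as FPKM. From replicate 2 or replicate 1 alone, 28 and 27 members reached 10 TPM. By mm9 RPKM, 11 of 34 members moved by at least 3 ranks within the set. Gpx2 lay at the counting floor.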
